A study of Homo sapiens with 27 samples.

Results

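The JNK and p38 MAP kinase cascade was followed through 10 genes, taken by symbol from the first column of the 3 count tables, out of 20089 symbols that all 3 tables list. Of these genes, 4 encode MAP2K kinases (MAP2K3, MAP2K4, MAP2K6 and MAP2K7), 3 encode JNK kinases (MAPK8 for JNK1, MAPK9 for JNK2 and MAPK10 for JNK3) and 3 encode p38 kinases (MAPK14 for p38 alpha, MAPK11 for p38 beta and MAPK13 for p38 delta). RNA was counted in 27 libraries from 3 human prostate cancer lines, 22Rv1, DU145 and PC3, with 9 libraries per line in 3 groups of 3. The control group of each line carried control gRNA 1 and has the genotype label WT. Every other group carried a guide RNA against RIPK2 and has the genotype label RIPK2 knockout. These were RIPK2 gRNA 1 and RIPK2 gRNA 10 in 22Rv1, and RIPK2 gRNA 2 and RIPK2 gRNA 10 in both DU145 and PC3. Each guide was compared with the control of its own line, so both guide comparisons of a line share the same 3 control libraries. The labels do not say whether a guide population is a clone or a pool, or whether the 3 libraries of a group came from separate cultures, so p-values measure only the spread between these libraries, which may be technical.

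In this cascade, MAP3K enzymes that respond to stress, cytokines and bacterial products phosphorylate MAP2K enzymes, and these phosphorylate a MAP kinase on a threonine and a tyrosine of its activation loop. MAP2K7 acts on JNK, MAP2K3 and MAP2K6 act on p38, and MAP2K4 can act on either branch. RIPK2 is the adaptor kinase of the bacterial sensors NOD1 and NOD2, and it recruits the TAB and MAP3K7 (TAK1) complex, from which NF-kappaB, JNK and p38 signalling starts. The signal itself is carried by phosphorylation, which RNA counts do not measure, so all values below describe how much RNA of each kinase was present. In bulk RNA, fewer cells with a transcript and less of it per cell cannot be told apart.

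MAPK14 and MAPK13 lie next to each other on chromosome 6, at 36027677 to 36111236 and 36127809 to 36144524 on the forward strand (GENCODE 29, GRCh38), and MAPK13 changed in all 6 guide comparisons below while MAPK14 changed in 1. MAP2K3, on the forward strand of chromosome 17 at 21284672 to 21315240, had the widest range of the 4 MAP2K genes over the 9 groups. The 250 bases before a RefSeq start of these 3 genes (GRCh38.p14, forward strand, 5′ to 3′) are shown to let their proximal sequence be compared. Capitals mark GC boxes, searched as GGGCGG on both strands, so that CCGCCC is the same box read from the other strand, and in MAP2K3 also an AP-1 element, searched as TGANTCA, which reads the same on both strands and did not overlap a GC box. AP-1 is a dimer that contains JUN, a substrate of JNK.
MAPK14, chr6:36027558-36027807: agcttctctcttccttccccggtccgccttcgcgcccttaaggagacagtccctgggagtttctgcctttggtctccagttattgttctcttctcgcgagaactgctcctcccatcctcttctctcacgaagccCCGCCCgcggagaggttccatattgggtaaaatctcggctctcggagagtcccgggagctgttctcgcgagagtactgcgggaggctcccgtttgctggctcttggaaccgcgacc
MAPK13, chr6:36130263-36130512: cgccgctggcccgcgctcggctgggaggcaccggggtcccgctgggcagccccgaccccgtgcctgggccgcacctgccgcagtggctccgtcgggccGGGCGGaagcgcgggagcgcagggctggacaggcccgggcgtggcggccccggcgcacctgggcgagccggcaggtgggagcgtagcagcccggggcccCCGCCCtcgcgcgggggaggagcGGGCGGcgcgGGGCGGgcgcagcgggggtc
MAP2K3, chr17:21284461-21284710: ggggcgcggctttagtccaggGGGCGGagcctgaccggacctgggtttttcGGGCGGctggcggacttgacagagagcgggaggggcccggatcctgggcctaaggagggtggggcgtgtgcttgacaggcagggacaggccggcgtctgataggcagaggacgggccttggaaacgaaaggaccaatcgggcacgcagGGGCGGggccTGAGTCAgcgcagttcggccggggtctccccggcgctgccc
The MAPK13 window is 84.4% G and C with 4 GC boxes, the MAPK14 window 59.2% with 1 box and the MAP2K3 window 70.4% with 3 boxes. The MAPK13 window lies inside the GENCODE gene, which has an earlier start, and the other 2 windows run past the GENCODE start. In MAP2K3 the letters TGAGTCA begin 41 bases before the RefSeq start of the window shown. Another RefSeq window of MAP2K3, chr17:21287786-21288035, is 60% G and C and has no GC box and no TGANTCA. The RefSeq table held 16 windows for the 10 genes, of which 10 (62.5%) had a GC box, against 42.6% of all 35116 windows in the table. TGANTCA occurred in 2 of the 16 windows (12.5%, MAP2K3 and MAPK10) and in 6.57% of all windows. Letters that match an element describe these windows only, and binding was not measured.

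Library totals ran from 17958558 to 20650819 counts, so a gene with a count of 0 may still have been present at up to 3 counts, or 0.14 to 0.172 CPM (counts scaled to library size with TMM factors over all 27 libraries), counting error only. In 22Rv1 gRNA 1, replicate 3 stood apart with 16.65% of its counts from mitochondrial genes, against 2.1% and 1.92% in the other replicates. DU145 gRNA 2 replicate 3 differed from its group in MAP2K6 and MAPK14, with a mitochondrial share of 2.89%. The other replicates of that group had 1.75% and 2.12%, and the DU145 gRNA 10 libraries 2.46% to 2.77%. RIPK2 itself was at 15.5, 17.5 and 15.6 CPM in 22Rv1 controls, 9.02, 7.97 and 8.01 with gRNA 1 and 5.49, 5.27 and 5.12 with gRNA 10, and at 64.2, 63.8 and 67.2 CPM in PC3 controls, 23.2, 21.5 and 21.4 with gRNA 2 and 27.2, 30.2 and 29.5 with gRNA 10. In DU145 it was at 38.2, 43.2 and 42.3 CPM in controls and 9.59, 12.9 and 11.8 with gRNA 2, but at 35.6, 32.9 and 33.7 CPM in the libraries labelled gRNA 10. That last step, -0.29 ± 0.11 (SE) on the log2 scale, missed the threshold (edgeR adjusted p = 0.0614), while the other 5 fell by 0.94 to 1.84. A count over the whole gene does not show whether its reading frame was cut, so the DU145 values for gRNA 10 below are those of libraries so labelled. Summed epithelial markers (EPCAM and 2 keratins) were at 384 CPM or more in every library. Summed leukocyte markers stayed at or below 1.22 CPM in all libraries. Other marker sums moved with the guides. In PC3 the epithelial sum was 773 to 803 CPM in controls, 965 to 1022 with gRNA 2 and 1729 to 1845 with gRNA 10. It was 755 to 800 CPM in DU145 controls and 1385 to 2711 with the guides, and 384 to 437 CPM in 22Rv1 controls and 587 to 686 with the guides. The sum of 4 fibroblast markers, most of it COL1A1, was 29.1 to 30.7 CPM in PC3 controls and 47.7 to 59.8 with the guides, and 7.88 to 9.88 CPM in 22Rv1 controls and 12.99 to 29.5 with the guides. In DU145 it was 12.9 to 13.5 CPM in controls, 5.35 to 11.8 with gRNA 2 and 23.8 to 29.8 with gRNA 10. Of 3 endothelial markers in PC3, PECAM1 ran from 1.83 to 10.4 CPM, and VWF and CDH5 were at 0.108 CPM or less, so the sum of 1.94 to 2.41 CPM in controls and 6.40 to 10.5 with the guides is PECAM1 for the most part. The part of these markers in the results below was not tested.

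The control levels were compared between lines first, which asks what cascade each line starts from. Line and count table coincide, so a difference between lines cannot be told apart from a difference between the tables. A gene is called different or changed where its edgeR quasi-likelihood test gave a Benjamini-Hochberg adjusted p below 0.05. Of the 10 genes, 6 differed between DU145 and 22Rv1 controls, where 75.9% of 16322 tested genes did. Between PC3 and 22Rv1 controls 8 of 10 differed against 80.5% of all genes, and between PC3 and DU145 controls 9 of 10 against 75.9%. The last count includes MAPK10, which passed the count filter only through PC3 libraries. The median of the 10 differences was -0.04, -0.52 and -0.22 on the log2 scale, with medians over all genes of -0.01, -0.04 and -0.03.

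MAPK8 and MAPK11 separated the lines most. MAPK8, the widely expressed JNK1 gene, was at 72.7, 82.1 and 71.0 CPM in the 22Rv1 controls, at 82.2, 84.5 and 75.1 CPM in the DU145 controls, and at 17.1, 17.6 and 16.7 CPM in the PC3 controls. PC3 lay far below both other lines with no overlap, while 22Rv1 and DU145 overlapped. The log2 difference was -2.13 ± 0.10 (SE) for PC3 against 22Rv1 and -2.23 ± 0.10 against DU145 (edgeR adjusted p = 2.27e-16 and 1.35e-16), and 0.10 ± 0.10 for DU145 against 22Rv1 (adjusted p = 0.348, edgeR). MAPK11, the p38 beta gene, was at 59.5, 57.9 and 73.1 CPM in 22Rv1 controls, at 31.1, 32.1 and 31.3 CPM in PC3 controls and at 8.58, 8.58 and 9.87 CPM in DU145 controls. The order 22Rv1, PC3, DU145 held without overlap, with log2 differences of -2.82 ± 0.24 for DU145 against 22Rv1 (edgeR adjusted p = 7.82e-11), -1.01 ± 0.22 for PC3 against 22Rv1 (0.000181) and 1.80 ± 0.24 for PC3 against DU145 (2.26e-07).

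Among the MAP2K genes, MAP2K3 was highest in DU145 (94.7 ± 3.35 CPM, SD, n = 3), then 22Rv1 (69.2 ± 8.41) and PC3 (46.8 ± 2.08), and every step of that order passed the edgeR test (adjusted p of 5.04e-05 or less). MAP2K7 had the reverse order, 78.2 ± 3.33 CPM in PC3, 63.1 ± 5.46 in 22Rv1 and 53.5 ± 0.199 in DU145, where the step from 22Rv1 to DU145 was small (log2 -0.24 ± 0.10, SE, edgeR adjusted p = 0.0275) and passed in 6 of 11 alternatives. MAP2K4 was lower in PC3 (38.3 ± 1.35 CPM) than in 22Rv1 (55.1 ± 8.02) and DU145 (56.7 ± 0.602), which did not differ beyond their spread (edgeR adjusted p = 0.724). MAP2K6 was scarce in all 3 lines, at 5.53 ± 0.195 CPM in DU145, 5.99 ± 0.221 in 22Rv1 and 8.39 ± 1.11 in PC3, and only PC3 against DU145 passed the test (log2 0.60 ± 0.25, SE, edgeR adjusted p = 0.035), a call that held in 5 of 11 alternatives. For the remaining kinases, MAPK9 (JNK2) ran from 50.1 ± 1.37 CPM in PC3 through 58.5 ± 3.21 in DU145 to 71.5 ± 1.99 in 22Rv1, each step beyond its spread (edgeR adjusted p of 0.00758 or less), though the step from PC3 to DU145 missed the threshold without DU145 control replicate 3 (0.0526). MAPK14, the p38 alpha gene, ran from 66.2 ± 6.56 in 22Rv1 through 87.3 ± 2.04 in PC3 to 101 ± 1.92 in DU145, and the last step missed the threshold (edgeR adjusted p = 0.137). MAPK13, the p38 delta gene, which is found mainly in epithelia, was at 19.9 ± 1.23 CPM in PC3, 33.2 ± 1.15 in 22Rv1 and 40.7 ± 1.74 in DU145, each step beyond its spread (edgeR adjusted p of 0.000967 or less). MAPK10, the JNK3 gene known from brain, heart and testis, had 1 to 7 counts in each 22Rv1 and DU145 library and 2 to 15 in PC3, which is near that detection limit. Its PC3 controls passed against those of DU145, on 2 to 13 counts against 2 in each DU145 library (log2 2.00 ± 0.66, SE, edgeR adjusted p = 0.00791). Without PC3 control replicate 2 the difference was 1.31 and missed the threshold (edgeR adjusted p = 0.119).

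**Figure D1:**
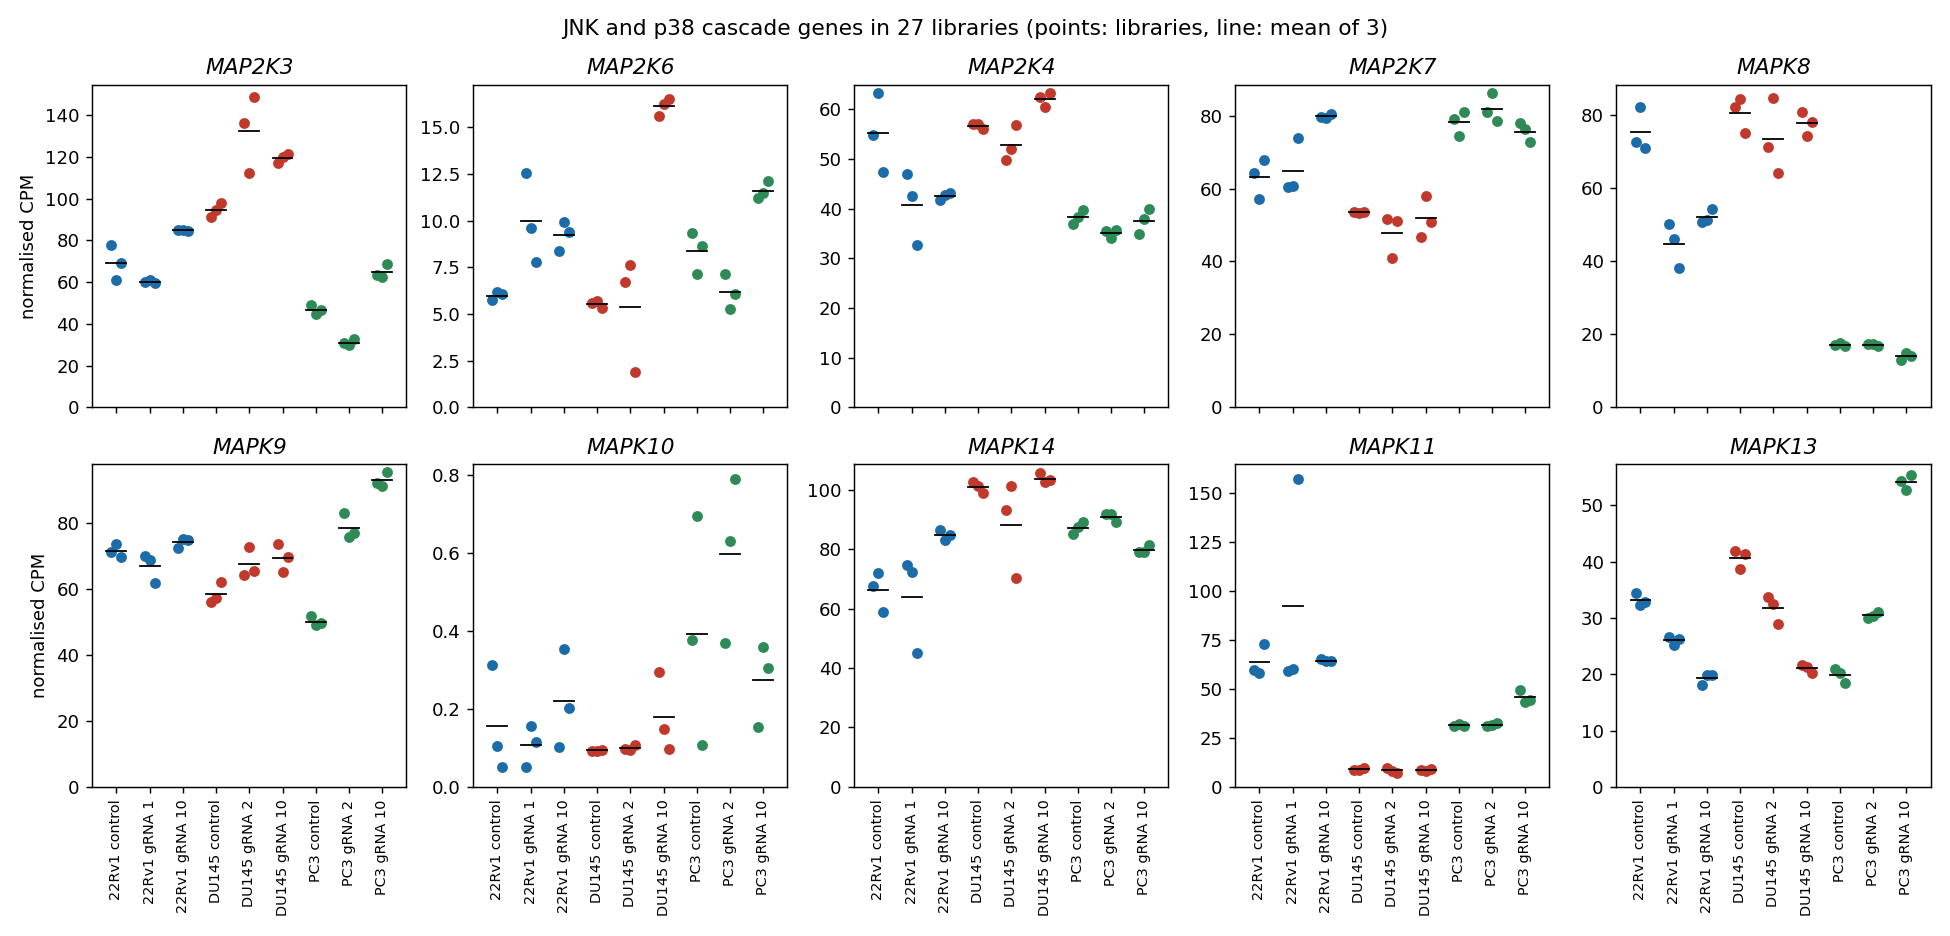
Normalised CPM (vertical axes, from 0) of the 10 genes in the 27 libraries, 1 panel per gene, with points for libraries and a line for the mean of 3. MAPK8 sits near 17 CPM in the PC3 controls against 75.3 and 80.6 on average in the other lines, MAPK11 is lowest in DU145, and MAPK13 falls with either guide in 22Rv1 and DU145 and rises in PC3.

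Levels of different genes were compared only per length, as CPM per kilobase of the GENCODE principal transcript, so they depend on that transcript being the one expressed. On this scale the JNK tier of 22Rv1 controls was shared almost evenly, 47.3% ± 1.30 (SD, n = 3) by MAPK8 and 52.6% ± 1.27 by MAPK9. In DU145 controls MAPK8 held 54.1% ± 2.82, and in PC3 controls MAPK9 held 77.0% ± 0.926. The p38 tier was formed from MAPK14, MAPK11 and MAPK13 only, without MAPK12 (p38 gamma), which is not among the genes followed. MAPK12 was at 86.7 CPM in 22Rv1, 33.4 in DU145 and 73.5 in PC3 controls, so each share would be lower with it. Within the tier so formed, MAPK14 held 29.4% ± 3.64 in 22Rv1, 53.2% ± 1.25 in DU145 and 50.5% ± 1.22 in PC3 controls. MAPK11 held 43.6% ± 4.51 of that tier in 22Rv1 and 7.38% ± 0.606 in DU145. Per kilobase of the union of all exons of a gene, its shares were higher, 62.2% ± 4.56 and 14.1% ± 1.12, while MAPK14 held 25.6% ± 3.83 in 22Rv1, 62.0% ± 1.41 in DU145 and 46.8% ± 0.854 in PC3. MAP2K6 held 1.15% ± 0.120 of the MAP2K tier or less in each control group, a share that rests on a principal transcript of 13400 bases.

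The guide comparisons ask whether the cascade's RNA differed between RIPK2-targeted and control cells of the same line. MAPK13 was the only gene of the 10 that passed the test with both guides in all 3 lines, lower than control in 22Rv1 and DU145 and higher in PC3. How many of all tested genes passed in all 6 comparisons was not counted, while 34% to 73.5% passed in each, so this does not mark MAPK13 as unusual. MAPK8 and MAP2K4 were lower with both guides in 22Rv1, MAPK9 higher with both in PC3, MAP2K6 higher with both in 22Rv1 and MAP2K3 higher with both in DU145. Each MAP2K4 call and the gRNA 10 call of MAP2K3 in DU145 were lost in 6 of 9 fits that left out 1 library. In 22Rv1, 4 of 9 tested members passed with gRNA 1 (1 higher, 3 lower), where 48.5% of 15198 genes did (25.6% higher, 22.9% lower), and 6 of 9 with gRNA 10 (3 higher, 3 lower) against 40.6% (20% higher, 20.6% lower). In DU145, 2 of 9 passed with gRNA 2 (1 higher, 1 lower) against 34% of 14908 genes (17.1% higher, 17% lower), and 3 of 9 with gRNA 10 (2 higher, 1 lower) against 40% (20.2% higher, 19.8% lower). In PC3, 4 of 10 passed with gRNA 2 (2 higher, 2 lower) against 63.6% of 14718 genes (32.1% higher, 31.5% lower), and 7 of 10 with gRNA 10 (5 higher, 2 lower) against 73.5% (37.9% higher, 35.6% lower). Without replicate 3 of 22Rv1 gRNA 1 the count was again 4 of 9 for that guide, against 54.6% of all genes in that fit, and 7 of 9 for gRNA 10, with MAPK14 added, against 58.3%. Without replicate 3 of DU145 gRNA 2 it was 4 of 9 for that guide, the added genes being MAP2K6 and MAPK9, against 45.8%, and 4 of 9 for gRNA 10, with MAPK9 added, against 58.4%. That library was singled out after its MAP2K6 value was seen, so the added MAP2K6 call is not independent of that choice. The median log2 change of the members lay between -0.10 and 0.05 in 5 of these 6 comparisons and was 0.23 with gRNA 10 in PC3, while the median over all genes was within 0.02 of 0.

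**Figure D2:**
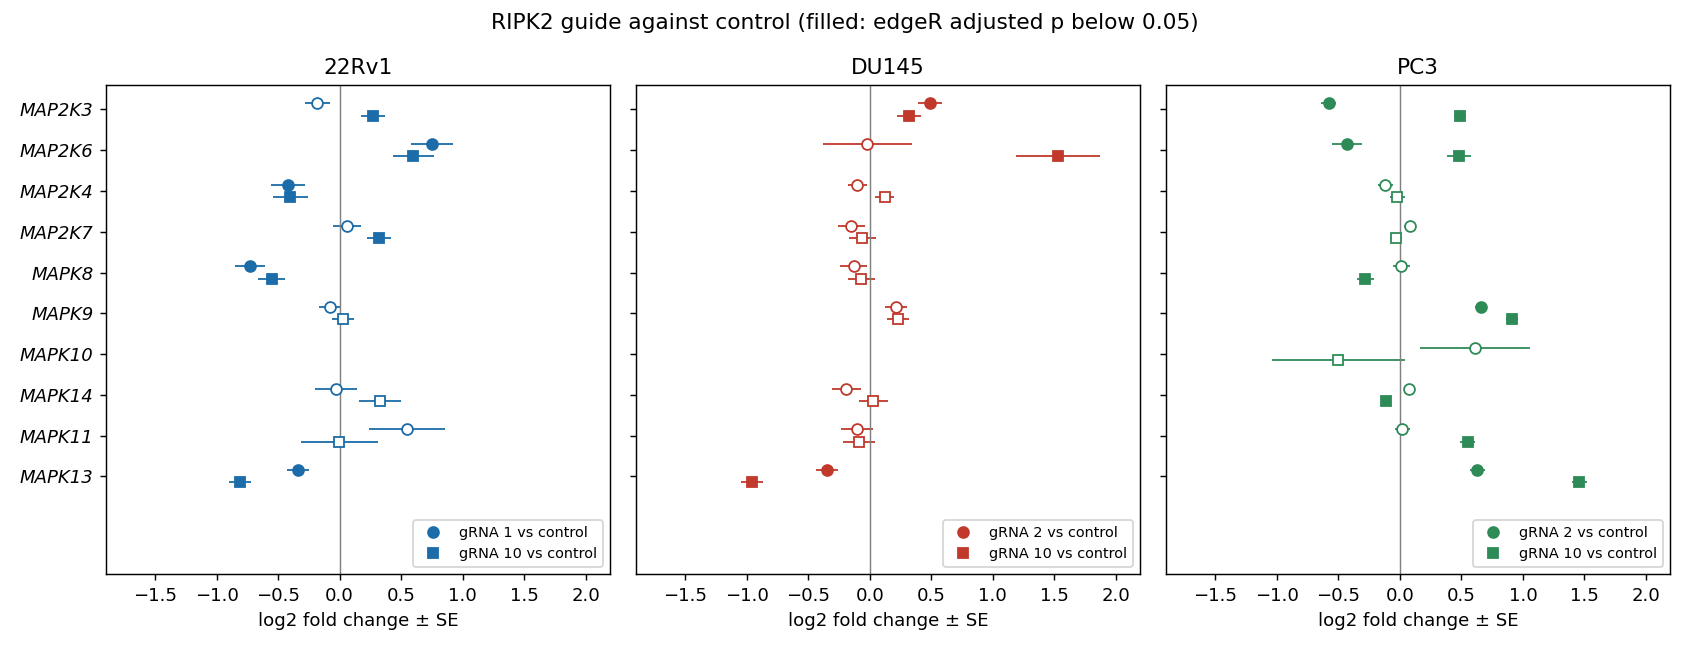
Log2 fold change against the line's control with its SE (horizontal axes) for each gene, with circles for gRNA 1 or 2, squares for gRNA 10, and filled symbols for an edgeR adjusted p below 0.05. MAPK13 lies left of 0 in 22Rv1 and DU145 and right of 0 in PC3, where it reaches 1.46, and MAP2K3 and MAP2K6 lie on opposite sides of 0 for the PC3 guides.

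Among the MAP2K genes of the p38 branch, MAP2K3 was at 49.1, 44.9 and 46.5 CPM in PC3 controls, at 30.8, 29.9 and 32.6 CPM with gRNA 2 and at 63.3, 62.7 and 68.7 CPM with gRNA 10. All gRNA 2 libraries lay below the controls and all gRNA 10 libraries above them. The log2 fold change was -0.58 ± 0.06 (SE) with gRNA 2 and 0.49 ± 0.05 with gRNA 10 (edgeR adjusted p = 2.35e-10 and 8.14e-10), and the guides differed from each other by -1.06 ± 0.05 (adjusted p = 2.66e-17, edgeR). In DU145 it was at 91.2, 94.8 and 98.0 CPM in controls, 136, 112 and 149 CPM with gRNA 2 and 117, 120.2 and 122 CPM with gRNA 10. Both guides lay above the controls without overlap, by 0.49 ± 0.10 and 0.32 ± 0.10 on the log2 scale (edgeR adjusted p = 0.00413 and 0.0241). The 22Rv1 controls had 77.6, 60.8 and 69.2 CPM, gRNA 1 had 60.2, 61.1 and 59.5 and gRNA 10 had 85.0, 84.9 and 84.5. There gRNA 10 lay above the controls (log2 0.27 ± 0.10, edgeR adjusted p = 0.042) and gRNA 1 overlapped them (-0.18 ± 0.10, adjusted p = 0.139), and the guides differed from each other by -0.45 ± 0.10 (0.00404). MAP2K3 RNA rose with gRNA 10 in each line, while the other guide gave no call in 22Rv1, a rise in DU145 and a fall in PC3. The DU145 gRNA 10 call was lost in 6 of 9 fits that left out 1 library and the 22Rv1 call in 7 of 9.

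MAP2K6, the second p38 activator, was at 5.60, 5.69 and 5.31 CPM in DU145 controls and at 15.6, 16.3 and 16.5 CPM in the DU145 libraries labelled gRNA 10. These ranges were far apart (log2 1.53 ± 0.34, SE, edgeR adjusted p = 0.00508). With DU145 gRNA 2 it was at 6.70, 7.62 and 1.87 CPM, so 2 libraries lay above the controls and replicate 3 below (log2 -0.02 ± 0.36, edgeR adjusted p = 0.974). Without that replicate the log2 fold change was 0.38 and passed the test (edgeR adjusted p = 0.0146). That setting drops the lowest value of the group and was singled out after the values were seen, so its call is not evidence of a rise. In 22Rv1 the controls at 5.74, 6.17 and 6.05 CPM lay below gRNA 1 at 12.5, 9.63 and 7.78 and gRNA 10 at 8.39, 9.94 and 9.38. Neither guide overlapped them, and both rises passed (0.75 ± 0.17 and 0.60 ± 0.17, edgeR adjusted p = 0.00468 and 0.0173), the gRNA 10 call in 12 of 15 alternatives. In PC3 the controls had 9.33, 7.17 and 8.67 CPM, gRNA 2 had 7.16, 5.27 and 6.06, and gRNA 10 had 11.2, 11.5 and 12.1. PC3 gRNA 2 lay just below the controls and gRNA 10 above them, with log2 fold changes of -0.43 ± 0.12 and 0.48 ± 0.10 (edgeR adjusted p = 0.00203 and 0.000118).

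The JNK-directed MAP2K genes had fewer calls. MAP2K4 was at 54.7, 63.4 and 47.3 CPM in 22Rv1 controls, 47.0, 42.6 and 32.8 CPM with gRNA 1 and 41.6, 42.8 and 43.2 CPM with gRNA 10. The guide libraries lay below the controls, and both guides passed the test by a narrow margin (log2 -0.42 ± 0.14 and -0.40 ± 0.14, SE, edgeR adjusted p = 0.0337 and 0.0484). Each of these calls was lost in 6 of 9 fits that left out 1 library. In DU145 and PC3 MAP2K4 passed with no guide, with log2 fold changes from -0.12 to 0.12. MAP2K7 was at 64.4, 57.1 and 67.8 CPM in 22Rv1 controls and at 79.5, 79.5 and 80.4 CPM with gRNA 10, all above the controls (0.32 ± 0.10, edgeR adjusted p = 0.0324), a call that held in 9 of 15 alternatives. Its other 5 guide comparisons missed the threshold, between -0.15 and 0.08. An antisense gene, AC010336.4, shares exon sequence with MAP2K7, and whether the counting used strand is not given in the sources used here.

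In the JNK tier, MAPK8 fell with both guides in 22Rv1, from 72.7, 82.1 and 71.0 CPM in controls to 50.2, 46.0 and 38.3 CPM with gRNA 1 and 50.7, 51.4 and 54.2 CPM with gRNA 10. No guide library reached the lowest control. The log2 fold changes were -0.73 ± 0.12 and -0.55 ± 0.11 (SE, edgeR adjusted p = 0.000476 and 0.00296), and -0.64 with gRNA 1 when replicate 3 was left out. In DU145 the MAPK8 ranges overlapped with both guides (-0.13 ± 0.11 and -0.07 ± 0.11, edgeR adjusted p = 0.373 and 0.655). In PC3, where it was low from the start, MAPK8 stayed at 17.4, 17.3 and 16.9 CPM with gRNA 2 and was at 13.1, 14.8 and 14.1 CPM with gRNA 10, below all controls (-0.28 ± 0.07, edgeR adjusted p = 0.00125).

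MAPK9 rose in PC3 instead. The PC3 controls had 51.6, 49.1 and 49.6 CPM, gRNA 2 had 83.0, 75.8 and 76.8 CPM and gRNA 10 had 92.0, 91.3 and 95.4 CPM. The 3 groups did not overlap. The log2 fold changes were 0.66 ± 0.05 and 0.91 ± 0.05 (SE, edgeR adjusted p = 2.27e-13 and 3.78e-17), and gRNA 2 lay below gRNA 10 by -0.24 ± 0.04 (adjusted p = 1.27e-05, edgeR). In DU145 MAPK9 was at 56.1, 57.3 and 62.2 CPM in controls, 64.3, 72.6 and 65.5 CPM with gRNA 2 and 73.6, 65.1 and 69.6 CPM with gRNA 10. Every guide library lay above the controls there, but neither guide passed (0.21 ± 0.09 and 0.23 ± 0.09, edgeR adjusted p = 0.086 and 0.0544). Without gRNA 2 replicate 3 both passed, at 0.24 and 0.23 (edgeR adjusted p = 0.0318 and 0.0159), and over all 15 alternatives gRNA 2 passed in 1 and gRNA 10 in 6. In 22Rv1 it ran from 61.8 to 75.1 CPM over all 9 libraries, with no call. MAPK10 was not tested in 22Rv1 and DU145. In PC3 its guides gave 0.61 ± 0.45 and -0.50 ± 0.54 against control without a call, on 15 counts or fewer per library (edgeR adjusted p = 0.244 and 0.408). Those guides differed from each other (log2 1.10 ± 0.48, edgeR adjusted p = 0.0419), a call that held in 8 of 13 alternatives. In PC3, MAPK10 reached the filter's minimum count of 10 only in gRNA 2 replicates 2 and 3 (12 and 15) and control replicate 2 (13). It thus entered the test largely through the group where it is high, so this call is not evidence of a difference.

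The MAPK9 to MAPK8 ratio of RNA per kilobase was higher with either guide in every line. In 22Rv1 it went from 1.11 ± 0.0565 (SD, n = 3) in controls to 1.76 ± 0.131 and 1.66 ± 0.0489, with MAPK8 lower. In PC3 it went from 3.41 ± 0.138 to 5.34 ± 0.227 with gRNA 2 and 7.78 ± 0.527 with gRNA 10, with MAPK9 higher. In DU145 the step was smaller, from 0.853 ± 0.0995 to 1.08 ± 0.0970 and 1.04 ± 0.0176. The ratios of guide and control libraries did not overlap in any line. The ratio was not tested by itself, and it depends on the transcript lengths only through a constant factor. MAP2K ratios were formed the same way. MAP2K7 to MAP2K4 overlapped its controls with both DU145 guides (0.852 to 1.19 against 1.06 to 1.09), 22Rv1 gRNA 1 and PC3 gRNA 10. It lay above them with 22Rv1 gRNA 10 and PC3 gRNA 2. MAP2K3 to MAP2K6 lay below its controls with 22Rv1 gRNA 1 and DU145 gRNA 10 and overlapped them otherwise. How many other gene pairs separate this way was not examined.

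In the p38 tier, MAPK13 changed with every guide. It was at 20.9, 20.2 and 18.5 CPM in PC3 controls, 30.0, 30.3 and 31.0 CPM with gRNA 2 and 54.3, 52.8 and 55.4 CPM with gRNA 10. The 3 groups were apart, and gRNA 10 lay highest. The log2 fold changes were 0.63 ± 0.06 and 1.46 ± 0.06 (SE, edgeR adjusted p = 2.3e-10 and 3.16e-20), with -0.83 ± 0.05 for gRNA 2 against gRNA 10 (adjusted p = 6.59e-15, edgeR). The 22Rv1 controls had 34.5, 32.4 and 32.7 CPM, gRNA 1 had 26.6, 25.1 and 26.3 CPM and gRNA 10 had 18.1, 19.9 and 19.8 CPM. Here the order was reversed, with gRNA 10 lowest (-0.34 ± 0.09 and -0.81 ± 0.09, edgeR adjusted p = 0.00883 and 3.95e-05). In DU145 the controls had 42.0, 38.7 and 41.3 CPM, gRNA 2 had 33.7, 32.5 and 28.9 CPM and the libraries labelled gRNA 10 had 21.6, 21.3 and 20.3 CPM. Groups were again apart and in the same order as in 22Rv1 (-0.35 ± 0.09 and -0.96 ± 0.09, edgeR adjusted p = 0.0113 and 2.53e-05). The gRNA 2 call in DU145 was lost without control replicate 1 (edgeR adjusted p = 0.0544). In DU145, MAPK13 was lower with gRNA 10 than with gRNA 2 (0.61 ± 0.09 for gRNA 2 against gRNA 10, edgeR adjusted p = 0.000548), and RIPK2 RNA was higher (-1.56 ± 0.12, 8.68e-06).

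MAPK14, the neighbouring and ubiquitous p38 gene, passed in 1 guide comparison. It was at 85.1, 87.6 and 89.2 CPM in PC3 controls and 78.9, 79.2 and 81.4 CPM with gRNA 10, a small fall with no overlap (log2 -0.11 ± 0.04, SE, edgeR adjusted p = 0.0156). Without PC3 control replicate 3 it was -0.10 and missed the threshold (edgeR adjusted p = 0.0679). In the other 5 guide comparisons it missed the threshold, between -0.19 and 0.33. In 22Rv1 gRNA 10 all 3 libraries (86.3, 83.0 and 84.7 CPM) lay above the controls (67.8, 71.9 and 59.0 CPM), and the comparison passed when gRNA 1 replicate 3, which shares the fit, was left out (0.34, edgeR adjusted p = 0.00126). The MAPK14 to MAPK13 ratio per kilobase went from 1.08 ± 0.115 (SD, n = 3) in 22Rv1 controls to 2.40 ± 0.177 with gRNA 10, from 1.35 ± 0.0628 to 2.68 ± 0.0778 in DU145, and from 2.40 ± 0.206 down to 0.800 ± 0.0129 in PC3. With 22Rv1 gRNA 1 and DU145 gRNA 2 it was 1.34 ± 0.357 and 1.51 ± 0.188, overlapping the controls, and with PC3 gRNA 2 it was 1.62 ± 0.0534, below all PC3 controls. Which gene of the pair was the more abundant in PC3 with gRNA 10 depends on the length used, since the ratio per kilobase of all exons was 1.55 ± 0.0249, while the changes between groups do not depend on it.

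**Figure D3:**
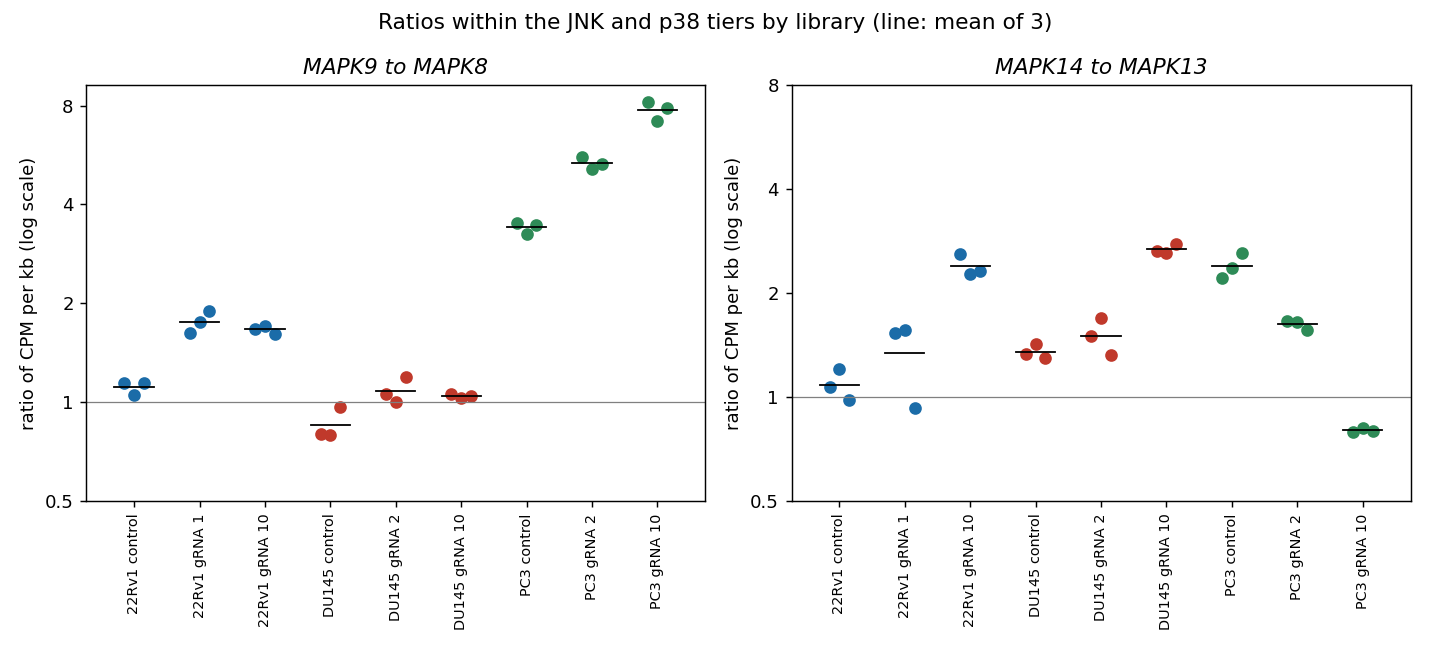
Ratio of CPM per kilobase (vertical axes, log scale) for MAPK9 to MAPK8 and MAPK14 to MAPK13, with points for libraries and a line for the mean of 3. The first ratio is above the control with each guide in each line, and the second goes up with gRNA 10 in 22Rv1 and DU145 and down in PC3, to 0.800 per kilobase of the principal transcripts.

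MAPK11 rose with gRNA 10 in PC3, from 31.1, 32.1 and 31.3 CPM to 49.3, 43.3 and 44.2 CPM, with all guide libraries above the controls (log2 0.55 ± 0.06, SE, edgeR adjusted p = 3.78e-10). With PC3 gRNA 2 it was at 31.1, 31.6 and 32.5 CPM, overlapping the controls (0.02 ± 0.06, edgeR adjusted p = 0.732). In 22Rv1 gRNA 1 it was at 59.2, 60.2 and 157 CPM, so the high mean rests on replicate 3, the library with the high mitochondrial share. The log2 fold change of 0.55 ± 0.31 (edgeR adjusted p = 0.168) became -0.08 without it. MAPK12, the p38 gamma gene that lies beside MAPK11 and is not among the 10 genes, was also high in that library, at 236 CPM against 109 and 104. In DU145 MAPK11 stayed between 7.23 and 9.87 CPM in all 9 libraries.

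The response to gRNA 10, the guide used in all lines, was compared between lines with interaction terms in a model of all 27 libraries. MAPK13 differed most, with PC3 above 22Rv1 by 2.23 ± 0.11 (SE, log2) and above DU145 by 2.39 ± 0.11 (edgeR adjusted p = 5.5e-15 and 1.34e-15), while DU145 and 22Rv1 did not differ beyond their error (-0.16 ± 0.11, adjusted p = 0.232, edgeR). MAPK9 also responded more in PC3, by 0.84 ± 0.10 against 22Rv1 and 0.64 ± 0.10 against DU145 (edgeR adjusted p = 1.87e-07 and 1.02e-05). In all, 4 of 10 members differed in response between DU145 and 22Rv1 (44.7% of all tested genes did), 4 between PC3 and 22Rv1 (47.6%) and 3 between PC3 and DU145 (48.1%). Over the 3 pairs, 7 of 10 members differed in at least 1, as did 71.8% of all genes. MAP2K3 was not among them (0.04 ± 0.12, 0.18 ± 0.13 and 0.13 ± 0.12). Within a line, one guide differed from the other in 2 of 9 members in 22Rv1 (35.6% of all genes), 2 of 9 in DU145 (38.8%) and 9 of 10 in PC3 (73.4%), all but MAP2K4. That PC3 count includes MAPK10, which entered the test largely through gRNA 2 libraries.

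The genes around each member were examined next, taking the 10 tested genes on either side, to set its change beside that of its stretch of chromosome. A neighbour is counted as higher or lower where it passed the edgeR test. Over all genes, 32.1% were higher with PC3 gRNA 2, and 37.9% higher and 35.6% lower with PC3 gRNA 10. With 22Rv1 gRNA 1, 25.6% were higher and 22.9% lower, and with DU145 gRNA 10, 20.2% and 19.8%. Around MAPK9 in PC3, 15 of 20 neighbours were higher with gRNA 2 and 15 of 20 with gRNA 10, with medians of 0.42 and 0.39 on the log2 scale beside 0.66 and 0.91 for MAPK9. Around MAPK13 in PC3 the medians were -0.07 and -0.12 beside 0.63 and 1.46, with 3 of 20 higher and 12 of 20 lower for gRNA 10. Around MAP2K3 in PC3 they were -0.23 with gRNA 2 and 0.57 with gRNA 10, the same signs as MAP2K3 itself. Around MAPK11 they were 0.64 for 22Rv1 gRNA 1, where 15 of 20 neighbours were higher and 0 lower, and 0.32 for PC3 gRNA 10. The 22Rv1 gRNA 1 group includes replicate 3, the library with the high mitochondrial share, without which the MAPK11 change was -0.08. The neighbours were not examined without that library. The neighbours of MAPK8 in 22Rv1 had medians of 0.14 and -0.07 beside the -0.73 and -0.55 of MAPK8. Around MAP2K6 the median was 0.36 beside 1.53 with DU145 gRNA 10, where 10 of 20 neighbours were higher and 1 lower, and 0.17 beside -0.02 with DU145 gRNA 2. It was 0.15 and 0.07 beside 0.75 and 0.60 in 22Rv1, and -0.15 and -0.12 beside -0.43 and 0.48 in PC3. The part of the surrounding stretch in the changes of MAPK9, MAP2K3, MAP2K6 and MAPK11 was not tested.

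**Figure D4:**
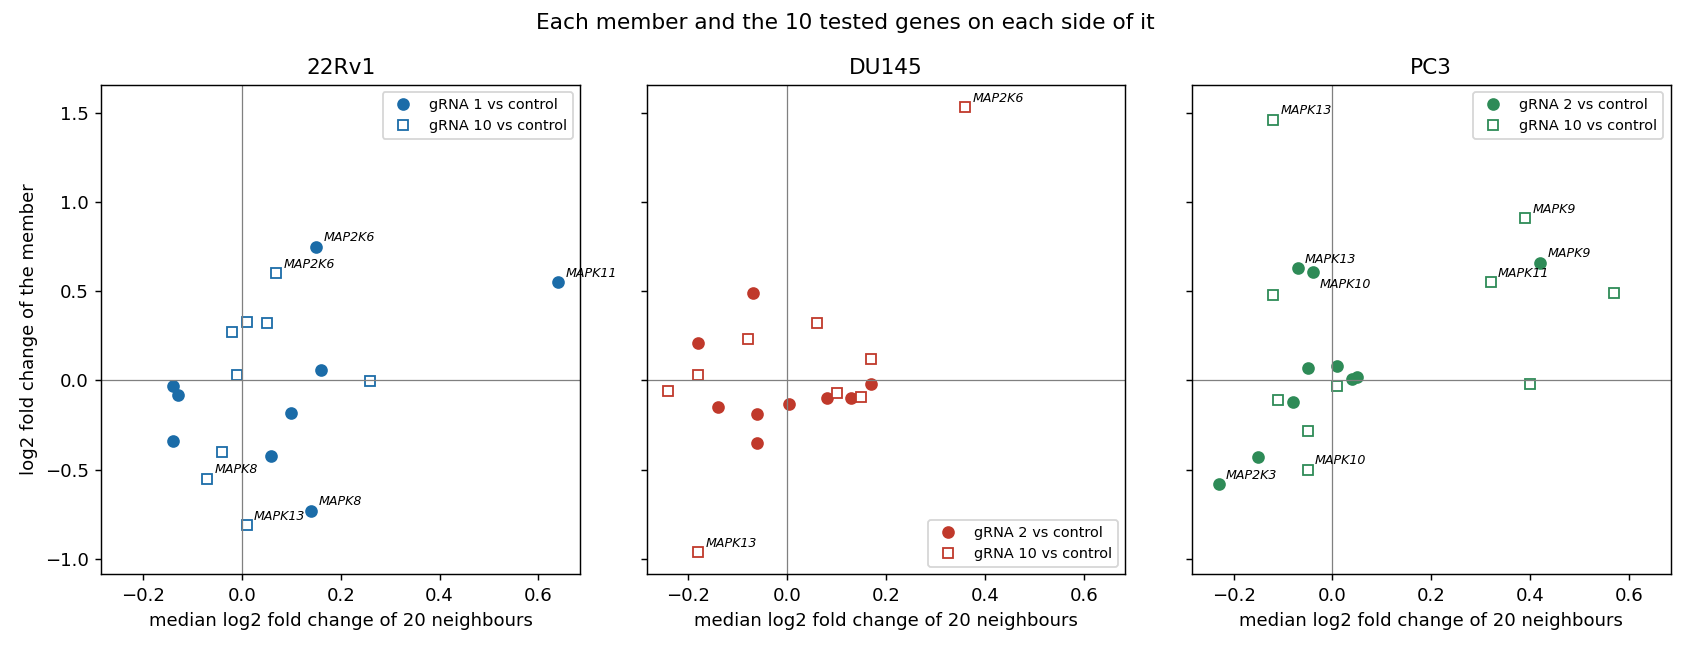
Log2 fold change of each gene (vertical axis) against the median log2 fold change of the 20 tested genes around it (horizontal axis), 1 panel per line, with filled circles for gRNA 1 or 2 and open squares for gRNA 10. MAPK13 in PC3 stands at 1.46 above neighbours at -0.12, while both MAPK9 points lie above neighbours at 0.39 and 0.42.

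The rest of the pathway was read from 6 lists around these genes, with all listed genes tested in every line. The MAP3K list (15 genes) had 7 calls with 22Rv1 gRNA 1 and 8 with gRNA 10, 7 and 5 in DU145, and 9 and 13 in PC3, with higher and lower members in each and medians from -0.24 to 0.15 on the log2 scale. The 11 phosphatases had 7 and 4 calls in 22Rv1, 7 and 4 in DU145 and 5 and 8 in PC3, with medians from 0.01 to 0.28. The 7 kinases activated by p38 had 2 and 2 calls in 22Rv1, 5 and 4 in DU145 and 6 and 5 in PC3, where all 6 with gRNA 2 were higher. Their medians were 0.41 and 0.34 in PC3 and from -0.27 to 0.13 in the other lines. The 9 transcription factor substrates had 7 and 4, 4 and 1, and 9 and 6 calls, in the same order of lines, with medians from -0.28 to 0.11. The 8 scaffold and adaptor genes had 5 and 3, 3 and 5, and 5 and 5, with medians from -0.20 to 0.16. The ERK module (6 genes), the parallel growth-factor cascade, had none with 22Rv1 gRNA 1 and DU145 gRNA 2, 1 with gRNA 10 in each of these lines, and 2 and 5 in PC3, with a median of 0.34 for PC3 gRNA 10 and between -0.12 and 0.08 elsewhere. Both counts of 0 were also 0 at an unadjusted edgeR p below 0.05 and with DESeq2, and became 1 and 2 without replicate 3 of the respective guide group. Over the 9 fits of a line that each left out 1 library, many of these counts moved in 22Rv1 and DU145. The transcription factors ran from 4 to 8 and from 0 to 8 calls in 22Rv1 and from 2 to 5 and from 0 to 4 in DU145, and the scaffolds from 3 to 6 and 1 to 6, and from 1 to 4 and 4 to 6. In DU145 the MAP3K genes ran from 3 to 9 and 4 to 8, the phosphatases with gRNA 10 from 2 to 6, and the kinases activated by p38 from 2 to 6 with either guide. The ERK module ran from 1 to 3 with 22Rv1 gRNA 10, from 0 to 2 with DU145 gRNA 10 and from 1 to 2 with PC3 gRNA 2, and no other PC3 count moved by over 1.5 times. These list shares are read beside the 34% to 73.5% of all genes (median within 0.02 of 0) that passed in the same comparisons. Named below are up to 3 genes of each list and line that passed with both guides in the same direction, with no overlap of guide and control libraries, ranked by the smaller of the changes, and their values are given with gRNA 1 or 2 first and gRNA 10 second, as log2 fold changes.

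Dual-specificity phosphatases, a family of which some members switch JNK or p38 off, held the largest fold changes of the genes named from these lists. DUSP10, which acts on JNK and p38, fell in 22Rv1 from 125, 141 and 120 CPM to 20.7, 19.6 and 21.6 with gRNA 1 and 8.03, 8.87 and 7.25 with gRNA 10 (log2 -2.62 ± 0.11 and -4.02 ± 0.12, SE, edgeR adjusted p = 3.67e-08 and 3.82e-09). The groups were far apart and gRNA 10 was lowest. In DU145, where DUSP10 was at 5.86 CPM in controls, it rose by 0.60 and 0.67 (edgeR adjusted p = 0.00591 and 0.00242). In 22Rv1 the JNK phosphatases DUSP16 (1.25 and 1.18) and DUSP8 (2.02 and 1.16) rose. In PC3, DUSP9 went from 0.377, 0.268 and 0.374 CPM to 5.37, 6.74 and 5.48 with gRNA 2 and 4.80, 3.86 and 4.64 with gRNA 10 (4.10 ± 0.23 and 3.70 ± 0.25, edgeR adjusted p = 7.45e-16 and 1.94e-14). It was scarce in controls, below the filter's minimum count of 10, and clearly present with both guides. DUSP9 was therefore tested and named only through its guide groups, and its fold changes rest on a few control counts. In the same line DUSP8 rose by 0.67 and 1.86, and DUSP4, at 763 CPM in controls, fell by 0.31 and 0.76. DU145 also had PPM1A higher (0.36 and 0.24) and DUSP22 lower (-0.31 and -0.28), where the gRNA 10 calls held in 7 and 8 of 15 alternatives.

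At the top of the cascade, MAP3K5 (ASK1), which acts on MAP2K3, MAP2K4, MAP2K6 and MAP2K7, fell in PC3 from 32.3, 37.0 and 33.6 CPM to 7.90, 6.95 and 7.59 with gRNA 2 and 11.2, 13.9 and 13.8 with gRNA 10 (log2 -2.18 ± 0.09 and -1.39 ± 0.08, SE, edgeR adjusted p = 1.37e-19 and 2.73e-16). MAP3K6 (ASK2) rose in PC3 by 0.59 and 1.14 and in 22Rv1 by 1.15 and 0.83, and fell in DU145 by 0.46 and 0.63. MAP3K13 (LZK), a JNK-pathway kinase, fell in 22Rv1 (-0.75 and -0.84) and rose in DU145 (0.62 and 0.42). MAP3K12 (DLK), its close relative, rose in 22Rv1 by 2.33 and 1.79, from 8.45 CPM, and by 1.63 with gRNA 1 when replicate 3, which had 74.3 CPM against 25.6 and 26.4, was left out. MAP3K10 fell in DU145 (-0.70 and -0.48), and MAP3K1 rose in PC3 (0.82 and 0.50). TAB2, the adaptor that joins MAP3K7 to the ubiquitin chains built at RIPK2, fell in 22Rv1 by 1.05 and 0.60 (edgeR adjusted p = 7.96e-05 and 0.00315).

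Among the scaffolds that hold JNK modules together, MAPK8IP2 fell in DU145 by 1.82 and 1.01 and MAPK8IP1 in PC3 by 0.51 and 0.68, together with SPAG9 (-0.31 and -0.38). MAPK8IP3 passed in 22Rv1 (1.33 and 1.05) and DU145 (0.32 and 0.43). In 22Rv1 its gRNA 1 value was 0.56 without replicate 3, and its gRNA 10 call held in 6 of 15 alternatives. Its DU145 gRNA 2 call held in 7 of 15. Among kinases activated by p38, MKNK1, which phosphorylates the translation factor eIF4E, rose in PC3 (0.61 and 0.94) and fell in DU145 (-0.56 and -0.48). MAPKAPK2, the p38-activated kinase that controls unstable cytokine mRNAs, rose in PC3 (0.41 and 0.57), as did RPS6KA5 (1.02 and 0.45), a histone kinase. MAPKAPK5 rose in 22Rv1 (0.49 and 0.47) and MAPKAPK3 fell in DU145 (-0.31 and -0.62), where the gRNA 2 call held in 7 of 15 alternatives.

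Of the transcription factors, MEF2C, a p38 substrate, rose in PC3 from 3.88, 3.64 and 4.01 CPM to 7.06, 6.27 and 5.90 with gRNA 2 and 31.2, 33.7 and 30.6 with gRNA 10 (log2 0.75 ± 0.12 and 3.06 ± 0.09, SE, edgeR adjusted p = 3.35e-06 and 2.32e-23). JUN rose in PC3 by 0.64 and 0.15, and ELK1 fell by 0.29 and 0.38. MEF2A fell with both guides in 22Rv1 (-0.55 and -0.44, the latter in 9 of 15 alternatives) and DU145 (-0.48 and -0.36), and ATF2 fell in 22Rv1 (-0.52 and -0.67). The ATF2 call for gRNA 1 held in 8 of 15 alternatives, with -0.30 when replicate 3 was left out. No ERK gene met the rule in any line. The ones with the smallest p were MAP2K1 in 22Rv1 (0.55) and MAPK7 in PC3 (0.82), each with gRNA 10 and not with the other guide.

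The 3 members with the widest range over the 9 group means were MAPK11 (3.30 on the log2 scale), MAPK8 (2.52) and MAP2K3 (2.08), with 0.1 CPM added to each level. With nothing added MAPK10, at 15 counts or fewer per library, spanned 2.67, more than MAPK8 (2.53) and MAP2K3 (2.09). Without replicate 3 of 22Rv1 gRNA 1, the group with the highest MAPK11, its range was 2.94. The genes whose log2 CPM followed them most closely over the 9 groups were LIPE, SLC44A4 and FRG1DP for MAPK11 (Pearson r = 0.998, 0.993 and 0.991), NLN, RPSAP58 and ZNF883 for MAPK8 (0.994, 0.991 and 0.990) and ZNF222, NDUFV2P1 and AKNA for MAP2K3 (0.953, 0.942 and 0.942). These are descriptions over 9 means that share lines and libraries, chosen as the closest of 4542, 6471 and 8078 genes with at least the same range.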

How the data were processed

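RNA from 27 libraries was sequenced as strand-specific mRNA on the DNBSEQ platform, per the labels' protocols. For each line the authors supplied raw counts per gene symbol (24385, 23534 and 23464 rows in 22Rv1, DU145 and PC3), deposited without normalization. FastQC, STAR, edgeR and hg38 are named, without versions, in the submitters' processing notes. The counter, the annotation and the use of strand in counting are not given in the sources used here. Symbols listed more than once (6, 2 and 2) were summed.

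Each line was fitted by itself with edgeR 4.0.16 in R 4.3.3: TMM factors, filterByExpr (minimum count 10, minimum total 15), robust quasi-likelihood F test, Benjamini-Hochberg adjustment over all tested genes, threshold 0.05. Differences between controls and in the response to gRNA 10 came from a model of all 27 libraries over the 20089 shared symbols. Printed CPM use its TMM factors. The test was run on simulated counts first, with 200 genes changed 1.5-fold in the gRNA 1 or 2 group. It recovered 21.5% of them in 22Rv1, 46% in DU145 and 87.5% in PC3. Only those 200 of 14510, 14460 and 14064 tested genes were changed, while in the data 48.5%, 34% and 63.6% of genes passed with these guides. The adjusted threshold was therefore stricter in the simulation, and these shares do not give the sensitivity of the tests reported here. The spread between libraries (biological coefficient of variation) was 14.2%, 12.3% and 3.55% in these lines. Alternatives were DESeq2 1.42.0, its size factors within edgeR, other filters, a replicate block, only the libraries compared, and leaving out each library. The settings that leave out replicate 3 of 22Rv1 gRNA 1 and of DU145 gRNA 2 were singled out, and union exon lengths added, after seeing the data. All 10 members are named, and genes of the other lists by the rule stated with them, with at least 10 counts per library on average in 1 group. For the 3 members of widest range, the 3 genes of highest Pearson r were named, on log2(CPM + 0.1). Some genes of the other lists are not reported here. The members and lists were chosen with earlier results of these data known.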

Additional observations from a re-analysis of the deposited data

Results flagged for a closer look

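The log2 response to gRNA 10 differed between lines for 7 of the 10 genes in an interaction test of the 27-library edgeR model, with adjusted p-values over all 16322 genes, of which 71.8% differed in at least 1 of the 3 pairs of lines. Between DU145 and 22Rv1 the difference was 0.92 for MAP2K6 (edgeR adjusted p = 0.0351), 0.50 for MAP2K4 (0.00577), -0.38 for MAP2K7 (0.023) and 0.48 for MAPK8 (0.00521). The DU145 libraries compared are those labelled gRNA 10, whose RIPK2 RNA was near control. Between PC3 and 22Rv1 it was 2.23 for MAPK13 (edgeR adjusted p = 5.5e-15), 0.84 for MAPK9 (1.87e-07), -0.48 for MAPK14 (0.0287) and -0.39 for MAP2K7 (0.0197). Between PC3 and DU145 it was 2.39 for MAPK13 (edgeR adjusted p = 1.34e-15), 0.64 for MAPK9 (1.02e-05) and -1.08 for MAP2K6 (0.0119). The MAP2K6 difference between DU145 and 22Rv1 passed in 7 of 17 alternatives and the MAPK14 difference in 10 of 17. MAP2K7 passed in 15 of 17 for DU145 and 16 of 17 for PC3, and the other 7 differences passed in 17 of 17.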

How the results depend on the processing

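Of 144 values of the 10 genes, 73 passed the test, and 55 of these passed under every alternative run. Over 2089 values under alternatives, no called value changed sign, and 81 missed the threshold. The number of members called ran, over fits that left out 1 library, from 2 to 7 in 22Rv1 gRNA 10 (6 with all libraries), 1 to 4 in DU145 gRNA 2 (2), 2 to 4 for DU145 gRNA 2 against gRNA 10 (2) and 2 to 4 for the gRNA 10 response of DU145 against 22Rv1 (4). Calls over all genes in DU145 gRNA 2 ran from 3259 to 6957 (5072). With only the libraries compared in the fit, DU145 had 3335 calls with gRNA 2 and 9749 with gRNA 10, where all 9 libraries gave 5072 and 5956. The cause was not tested.

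With the replicate number as a block, 22Rv1 gRNA 10 had 5 members called, with MAP2K3 lost, and the other member counts did not move (4 and 2 in 22Rv1, 2, 3 and 2 in DU145, 4, 7 and 9 in PC3, and 6, 8 and 9 between controls). Same-numbered libraries had median correlations of their deviations of 0.0444, 0.021 and 0.0239 in 22Rv1, DU145 and PC3. They ran from -0.0806 to 0.339, -0.189 to 0.0725 and -0.0494 to 0.0615. Libraries with different numbers had medians of -0.022, -0.0061 and -0.0165. The numbers are those of the sample titles, which differ from the library names in some groups. Pairing by library name was not examined, so these values do not settle whether samples were paired.

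Among values without a call, signs changed for MAPK11 in 22Rv1 gRNA 10 (0.0019 with at least 10 counts in every library, 0.03 with the replicate block, 0.01 with only the libraries compared), for MAPK9 and MAPK11 between the DU145 guides (0.01 each with no filter) and for MAP2K7 in the gRNA 10 response of PC3 against DU145 (0.01 with no filter, the strict filter, DESeq2 and its factors). Leaving out 1 library gave these ranges across 0. In 22Rv1 gRNA 1 they were -0.05 to 0.11 for MAP2K7, -0.08 to 0.78 for MAPK11 and -0.16 to 0.16 for MAPK14, and in 22Rv1 gRNA 10 -0.06 to 0.11 for MAPK11. Between the 22Rv1 guides they were -0.14 to 0.10 for MAP2K4, -0.05 to 0.29 for MAP2K6 and -0.09 to 0.78 for MAPK11. In DU145 they were -0.35 to 0.38 for MAP2K6 with gRNA 2, and -0.14 to 0.01 for MAP2K7 with gRNA 10. Between the DU145 guides they were -0.16 to 0.01 for MAP2K7, -0.12 to 0.08 for MAPK11, -0.18 to 0.03 for MAPK8 and -0.08 to 0.02 for MAPK9. In PC3 they were -0.0043 to 0.03 for MAPK8 with gRNA 2, and -0.06 to 0.04 for MAP2K4 and -0.94 to 0.19 for MAPK10 with gRNA 10. Between DU145 and 22Rv1 controls they were -0.06 to 0.15 for MAP2K4 and -1.10 to 0.25 for MAPK10. In the gRNA 10 response they were -0.05 to 0.13 for MAP2K3 and -0.53 to 0.93 for MAPK10 in DU145 against 22Rv1, and -0.05 to 0.08 for MAP2K7 in PC3 against DU145. Depth limits MAPK10 most, with 15 counts or fewer per library.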
